A study of Saccharomyces cerevisiae with 51 samples.

Results

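Small nucleolar RNA (snoRNA) genes were described here from the genome annotation deposited with a chromatin immunoprecipitation sequencing (ChIP-seq) study of mitotic chromosome condensation in budding yeast. Members were all genes with the biotype snoRNA on the nuclear chromosomes of the annotation called before, and there were 77 of them among 7071 nuclear genes and 7126 genes in all. The study comprised 51 libraries of BY4741 yeast, made from input DNA, from histone H3 ChIP and from ChIP of H3 phosphorylated at serine 10 (H3pS10). Its groups were wild-type cells, cells with an ipl1-TetR-mCh or sgo1-TetR-mCh fusion, sgo1 delta cells and H3-S10A cells, each with and without beta-estradiol (E2, 1 nM for 3 hours), and heat-treated cells (37 °C, 90 minutes) of wild-type, cdc15-1 and ipl1-321 strains. The labels give BY4741 as the background of all 51 libraries and do not name the promoter of either fusion. Of 39 groups by strain, treatment and assay, 33 had 1 library and 6 had 3. None of the 6 files used gives a signal, so no comparison between these groups was made and the depth of the libraries is unknown. Lengths, distances and counts below are exact readings of text files, with no replicates, no sampling error and no test.

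snoRNAs are nucleolar RNAs that guide the chemical modification of ribosomal RNA (rRNA) by base pairing with it, and a few act in the cleavage of its precursor. Box C/D snoRNAs carry the methyltransferase Nop1 (fibrillarin) and guide ribose methylation, whereas box H/ACA snoRNAs carry the pseudouridine synthase Cbf5 and guide the conversion of uridine to pseudouridine. In yeast, most snoRNA genes are transcribed from their own promoters by RNA polymerase II, some lie in polycistronic arrays that are cut apart by the RNase III enzyme Rnt1, and some lie in introns of protein-coding genes and are released from the spliced intron.

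By textbook class lists, 47 members were box C/D, 29 were box H/ACA and 1 was neither. The last was NME1, the RNA subunit of RNase MRP, a ribonuclease that cuts the rRNA precursor. It is related in function and location to the snoRNAs but is no modification guide. In the gene table of assembly R64 all 77 names were found, with the biotype snoRNA for 76 of them and another biotype for NME1. NME1 is kept below because the rule takes the annotation's biotype.

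The members were short, and most box C/D genes were shorter than the box H/ACA genes. The median length was 126 bp, against 73 bp for 275 nuclear tRNA genes and 1086 bp for 6664 nuclear protein-coding genes. Box C/D genes ranged from 78 to 490 bp with a median of 98 bp (quartiles 89 and 109 bp). Box H/ACA genes ranged from 161 to 1004 bp with a median of 204 bp (quartiles 188 and 268 bp). Of 47 box C/D genes, 40 were 140 bp or shorter, and none of the 29 box H/ACA genes was. No member lay between snR68 (box C/D, 136 bp) and snR161 (box H/ACA, 161 bp). Wider empty steps lay higher up, as from 606 to 1004 bp. The other 7 box C/D genes lay within the box H/ACA range. These were snR70 (164 bp), snR45 (172 bp), snR4 (186 bp), snR190 (190 bp), snR63 (255 bp) and the U3 genes snR17b (462 bp) and snR17a (490 bp). snR4 and snR45 are known to guide acetylation of the small-subunit rRNA rather than methylation, and U3 acts in cleavage of the rRNA precursor.

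**Figure D1:**
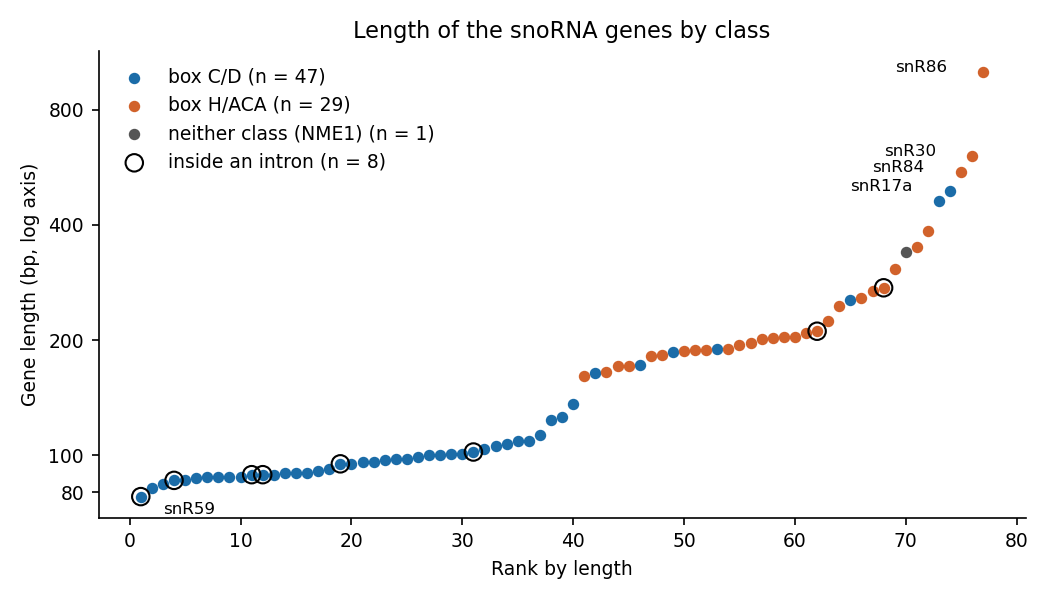
Length in bp (log axis) of the 77 snoRNA genes, ranked from shortest to longest; each point is 1 gene, coloured by class, and rings mark the 8 genes inside introns. The step from 136 to 161 bp separates 40 box C/D genes from a mixed upper range that ends with snR86 at 1004 bp.

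The shortest members were all box C/D. They were snR59 (78 bp), snR67 (82 bp), snR79 (84 bp), and snR54 and snR66 (86 bp each). At the other end, snR86, a pseudouridylation guide on chromosome XIII (762110 to 763113, minus strand), measured 1004 bp. The next in length was snR30 (606 bp; chromosome XII, 198784 to 199389, plus strand), a box H/ACA RNA needed for cleavages that yield the small-subunit rRNA. snR84 followed with 550 bp (chromosome IV, 1495582 to 1496131, minus strand). In all, 9 members were longer than 300 bp, 6 of them box H/ACA, 2 box C/D and 1 NME1.

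The U3 genes were the members annotated with an intron of their own. snR17a (chromosome XV, 780107 to 780596, plus strand) had a first exon of 14 bp, an intron of 157 bp and a second exon of 319 bp. snR17b (chromosome XVI, 281056 to 281517, minus strand) had exons of 14 and 318 bp around an intron of 130 bp. Thus the exons of both copies summed to nearly the same length, 333 and 332 bp, while the introns differed by 27 bp. The remaining 75 members had a single exon.

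Members lay on 15 of the 16 nuclear chromosomes and were unevenly spread. Chromosome XIII held 13, chromosome XV 11 and chromosome XII 7, while chromosome VI (270161 bp, 157 genes) held none. Chromosomes I and IX held 1 each, snR18 and snR68. Chromosome IV, at 1535038 bp the longest, held 4. Density over the nuclear genome was 0.638 members per 100 kb, against 2.28 tRNA genes per 100 kb. By chromosome it was highest on chromosome XIII (1.41 per 100 kb), chromosome III (1.26) and chromosome XV (1.01). Part of this came from clusters. With each cluster counted once there were 64 positions, chromosome XIII fell to 0.757 per 100 kb, and chromosome III was the densest. The members of chromosome III were snR43, snR33, snR65 and snR189, none of them in a cluster.

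The mix of classes also differed between chromosomes. Among all 77 members, 47 were box C/D and 29 box H/ACA. All 6 members on chromosome XVI were box C/D, but 3 of them formed 1 cluster, so they made up 4 positions. On chromosome XV 7 of 11 and on chromosome III 3 of 4 were box H/ACA. These chromosomes were picked from the counts, and the difference was not tested. Neither strand was much preferred: 41 members were on the plus strand and 36 on the minus strand, 26 and 21 for box C/D and 14 and 15 for box H/ACA. The share on the plus strand was 53.2%, against 50.5% for all nuclear genes. By arm, 30 members lay to the left and 47 to the right of the interval between the arms, which was bounded by the last left-arm and first right-arm protein-coding gene. Per 100 kb of arm that was 0.599 and 0.667, and with clusters counted once it was 0.539 and 0.525.

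**Figure D2:**
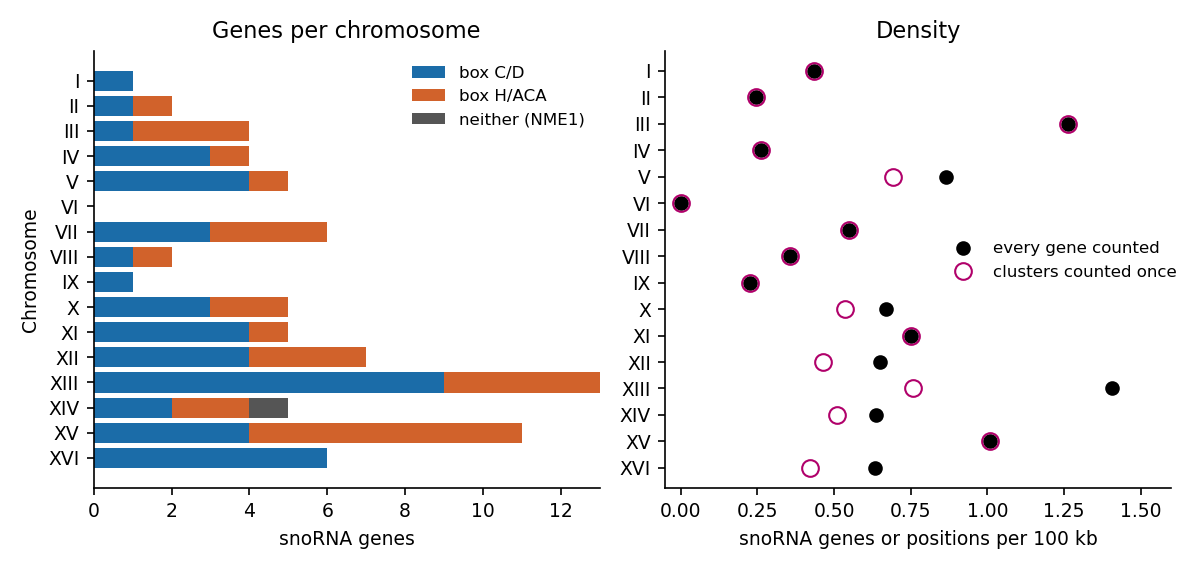
Left, number of snoRNA genes on each nuclear chromosome as bars stacked by class; right, density per 100 kb with every gene counted (filled points) and with each cluster counted once (open circles). Chromosome XIII goes from 1.41 to 0.757 per 100 kb when its cluster is counted once, and chromosomes III and XV stay at 1.26 and 1.01.

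No member lay within 30 kb of a chromosome end, where 476 of 6664 protein-coding genes (7.14%) and 4 of 275 tRNA genes (1.45%) lay. The members nearest an end were snR64, a methylation guide 38810 bp from the left end of chromosome XI, and snR84, 38907 bp from the right end of chromosome IV. The median distance to the nearer end was 229260 bp for members and 203949 bp for protein-coding genes. Within 20 kb of the interval between the arms, where the centromere is, there were 3 of 77 (3.90%), against 375 protein-coding genes (5.63%) and 29 tRNA genes (10.5%). They were snR43 on chromosome III (6312 bp from the interval), snR87 on chromosome XI (8247 bp) and snR18 on chromosome I (8698 bp). The next members were snR33 on chromosome III at 26679 bp and the cluster on chromosome XIII, whose nearest gene snR78 was at 28259 bp.

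Inside introns lay 8 members, each in a different protein-coding gene and each on the strand of its host. The hosts were RPL7A and RPL7B, which encode copies of a large-subunit ribosomal protein, RPS22B, which encodes a small-subunit protein, EFB1 and TEF4, which encode subunits of translation elongation factor 1B, ASC1, which encodes the ribosome-bound RACK1 homologue, NOG2, which encodes a GTPase of large-subunit assembly, and IMD4, which encodes an IMP dehydrogenase. The same 8 hosts enclosed the same members in R64. No member lay inside the extent of a protein-coding gene other than in an intron. Of 275 tRNA genes, 9 lay inside the extent of a protein-coding gene and none in an intron, and the 6 snRNA genes and 14 other non-coding RNA genes lay in neither.

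Of the intronic members, 6 were box C/D (of 47) and 2 were box H/ACA (of 29). snR18 (chromosome I, 142367 to 142468) was in the single intron of EFB1 (YAL003W), which ran from 142254 to 142619 on the plus strand. It measured 102 bp of the 366 bp intron, with 113 bp before it and 151 bp after it. snR38 (chromosome XI, 283185 to 283279, plus strand) took 95 bp of the 326 bp intron of TEF4 (YKL081W), with 89 bp before and 142 bp after. snR24 (chromosome XIII, 499984 to 500072, minus strand) took 89 bp of the 273 bp intron of ASC1 (YMR116C), the shortest host intron, with 79 bp before and 105 bp after. snR54 (chromosome XIII, 163535 to 163620, minus strand) took 86 bp of the 408 bp intron of IMD4 (YML056C), with 96 bp before and 226 bp after, the most uneven placement.

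RPL7A and RPL7B are a duplicated gene pair, and both held a box C/D gene that guides methylation of the large-subunit rRNA. Each host had 2 introns, and in each the member was in the second. In RPL7A (YGL076C) it was snR39 (chromosome VII, 365163 to 365251, minus strand), 89 bp long in an intron of 468 bp. In RPL7B (YPL198W) it was snR59 (chromosome XVI, 173827 to 173904, plus strand), 78 bp long in an intron of 407 bp. The flanks were nearly even in both, 181 and 198 bp in RPL7A and 161 and 168 bp in RPL7B, and the members took 19.0% and 19.2% of their introns. The first introns of the pair, 459 and 409 bp, were of like length and held no annotated gene of this class.

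The 2 box H/ACA members took larger shares. snR44 (chromosome XII, 856710 to 856920, plus strand) was 211 bp of the 483 bp intron of RPS22B (YLR367W), 43.7%, with 135 and 137 bp around it. snR191 (chromosome XIV, 721938 to 722211, minus strand) was 274 bp of the 532 bp intron of NOG2 (YNR053C), 51.5%, with 91 and 167 bp around it. The 6 box C/D members took 19.0% to 32.6%. In all 8 introns the part before the member was shorter than the part after it, with medians of 104.5 and 159 bp. No member came closer than 79 bp to the start of its intron or 105 bp to its end.

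**Figure D3:**
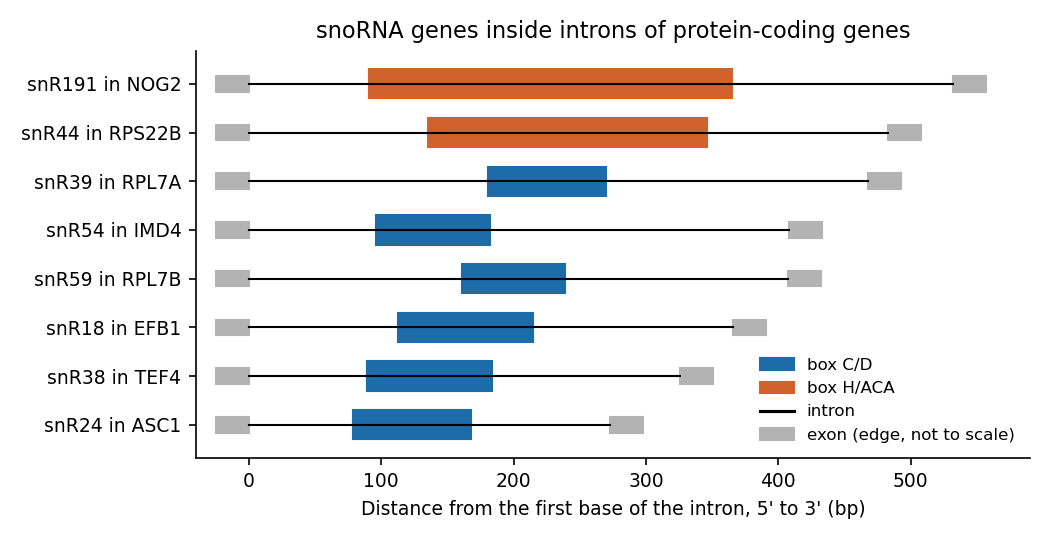
The 8 introns that hold a snoRNA gene, drawn to scale in bp from the first base of the intron in the direction of transcription; coloured boxes are the snoRNA genes and grey boxes mark the flanking exons. The box H/ACA genes snR44 and snR191 take 43.7% and 51.5% of their introns, and in all 8 the part on the 3′ side is the longer one.

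By median, host introns were long against other introns and close to those of ribosomal protein genes. They ranged from 273 to 532 bp with a median of 407.5 bp. The other 274 nuclear introns of protein-coding genes had a median of 133.5 bp, and 106 of them were as long as the shortest host intron. The 87 introns of genes named RPL or RPS that held no member had a median of 408 bp and a lower quartile of 365 bp. Of the hosts only RPL7A, RPL7B and RPS22B are such genes. The host introns of ASC1 (273 bp) and TEF4 (326 bp) lay below that quartile. Among all 282 introns the host introns ranked between 12th (NOG2) and 114th (ASC1) by length. The intronic box C/D genes had a median length of 89 bp, against 99 bp for the 41 box C/D genes elsewhere.

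Clusters were runs of neighbouring members on the same strand less than 1 kb apart, and there were 6 of them with 19 members (24.7% of 77). By the same rule 8 of 275 tRNA genes (2.91%) were in clusters, none larger than 2. The clustered members were 18 of 47 box C/D genes and NME1, and none of the 29 box H/ACA genes. The 13 gaps within clusters ranged from 69 to 265 bp with a median of 131 bp. The next same-strand pair, snR39B and snR39, was 1122 bp apart, so no pair lay between 265 and 1122 bp and the limit of 1 kb fell in an empty range. Beyond that, snR62 and snR9 were 1630 bp apart with other genes between them, and the following pair, snR8 and snR5, 9881 bp apart.

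The largest cluster had 7 box C/D genes on the plus strand of chromosome XIII (297278 to 298651), in the order snR78, snR77, snR76, snR75, snR74, snR73 and snR72 from the 5′ side. All are guides of rRNA methylation. The members were 87, 88, 109, 89, 88, 106 and 98 bp long, and the gaps between them were 141, 131, 84, 131, 81 and 141 bp. Members therefore filled 48.4% of the 1374 bp. The cluster began 539 bp from the divergent gene SEC59, which encodes dolichol kinase, and ended 216 bp before BUD22 on the same strand. It also held the sole annotated gene of another kind in any of the 6 clusters. This was YMR013W-A, annotated as protein-coding, whose 81 bp (298311 to 298391) lay wholly within snR73 on the same strand. R64 has no entry of that name.

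Both clusters of 3 genes were box C/D and on the minus strand. On chromosome XVI (718700 to 719242) the order was snR41 (95 bp), snR70 (164 bp) and snR51 (107 bp), with gaps of 97 and 80 bp. The last gene ended 15 bp from the convergent gene YPR092W, the closest downstream neighbour of any member outside introns. On chromosome XII (794486 to 795024) the order was snR57 (88 bp), snR55 (98 bp) and snR61 (90 bp), with gaps of 142 and 121 bp. This cluster lay 548 bp downstream of RPS25B, a ribosomal protein gene on the same strand, and 496 bp from a convergent tRNA gene, tD(GUC)L2.

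The pairs differed more among themselves. snR190 and snR128 on the minus strand of chromosome X (139566 to 139950) were 190 and 126 bp long and 69 bp apart, the shortest gap of all, and filled 82.1% of their 385 bp. snR128 is U14, which acts both as a methylation guide and in maturation of the small-subunit rRNA. Their upstream neighbour, 486 bp away and divergent, was RPA34, a gene for a subunit of RNA polymerase I, the enzyme that transcribes rRNA. snR67 and snR53 on the plus strand of chromosome V (61352 to 61789) were 82 and 91 bp long and 265 bp apart, the widest gap, with the tRNA gene tG(GCC)E 100 bp beyond snR53 and convergent with it. NME1 (340 bp) and snR66 (86 bp) on the plus strand of chromosome XIV (585587 to 586175) were 163 bp apart. This last pair counts as a cluster through the biotype of NME1 alone, and without it there were 5 clusters with 17 members.

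**Figure D4:**
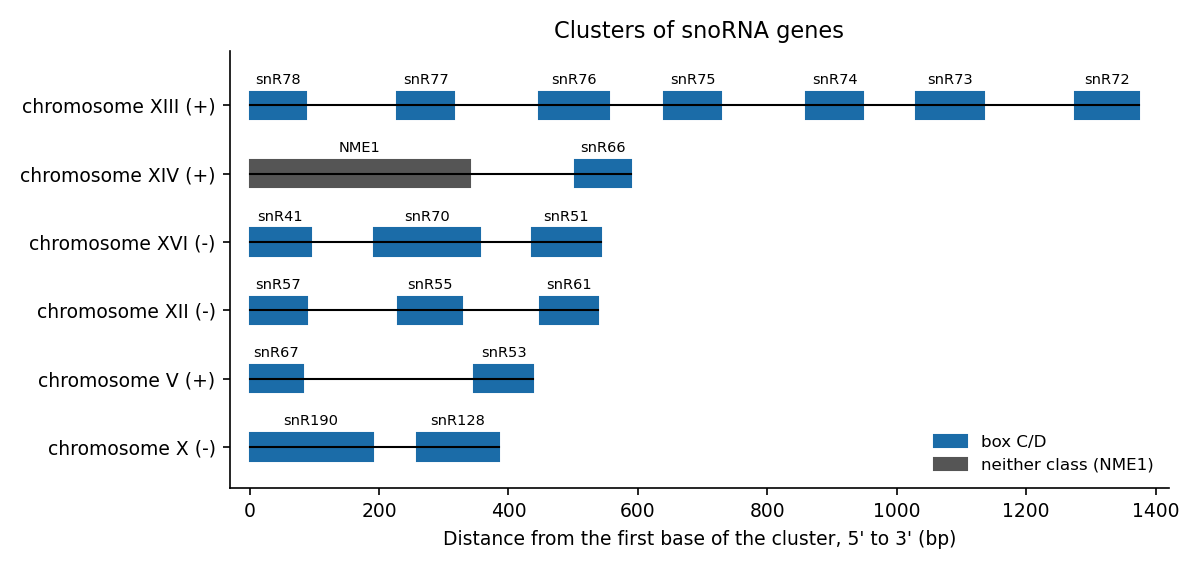
The 6 clusters of snoRNA genes, drawn to scale in bp from the first base of each cluster in the direction of transcription, with the strand beside the chromosome. Every gap is between 69 and 265 bp, and the cluster of 7 on chromosome XIII spans 1374 bp.

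Counting members on either strand added 1 pair. snR31 (chromosome XV, 841958 to 842182, minus strand) and snR5 (842403 to 842606, plus strand) are box H/ACA genes that pointed away from each other across 220 bp, with no annotated gene between. Another box H/ACA gene, snR161 (chromosome II, 307185 to 307345, minus strand), was likewise divergent from TLC1, the telomerase RNA gene, across 241 bp. On chromosome III, snR65 (plus strand) and snR189 (minus strand) pointed toward each other across 1327 bp, with the ribosomal protein gene RPS14A between them.

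Outside introns and same-strand clusters were 50 members, 23 box C/D and 27 box H/ACA, with snR31 and snR5 among them. Of these, 3 overlapped a gene annotated as protein-coding on the same strand. snR10, a box H/ACA RNA of rRNA cleavage and modification (chromosome VII, 345986 to 346230, plus strand), shared 216 bp, 88.2% of its length, with YGL088W. snR60 (chromosome X, 349130 to 349233, minus strand) shared 49 bp with YJL047C-A, and snR17a shared its first 78 bp with the 3′ end of IRC13 (YOR235W). Reads from these stretches cannot be assigned to 1 gene of a pair by position or strand.

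Of the 47 that overlapped no gene, 24 (51.1%) had a divergent gene as the nearest on the 5′ side and 23 had a gene on the same strand. For protein-coding genes that overlap nothing the divergent share was 50.7% of 5307, and for tRNA genes 55.9% of 261. The gap on the 5′ side had a median of 438 bp and a range of 36 to 1559 bp, and for 45 of the 47 (95.7%) it exceeded 200 bp, as it did for 89.7% of the protein-coding and 93.5% of the tRNA genes. The exceptions were snR58 (chromosome XV, 136088 to 136183, minus strand), 36 bp from YOL097W-A, and snR33 (chromosome III, 142364 to 142546, minus strand), 154 bp from the tRNA gene SUF16. The median was 413 bp for protein-coding genes and 814 bp for tRNA genes. Protein-coding extents appear to leave out untranslated ends, so gaps measured to or from such genes include any such ends. On the 3′ side the median gap of the 47 was 245 bp and the range 26 to 996 bp, and in 36 of 47 (76.6%) the gap before the gene was the longer one. The same held for 68.1% of the protein-coding and 79.7% of the tRNA genes compared, so this share is near that of genes in general.

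The longest 5′ gaps belonged to snR84 (1559 bp to HLR1), snR52 (1274 bp to GLC7), snR62 (1005 bp to WHI2) and snR47 (973 bp to NRG1). snR52 (chromosome V, 431129 to 431220, minus strand), a methylation guide of 92 bp, is known for transcription by RNA polymerase III from a promoter in its leader. Its neighbour GLC7 encodes the catalytic subunit of protein phosphatase PP1, the phosphatase known to oppose the Aurora kinase Ipl1 on H3 serine 10. The shortest 3′ gap was 26 bp, between snR9 (chromosome XV, 407948 to 408134, minus strand) and the convergent gene GLO4. snR46 (chromosome VII, 545370 to 545566, plus strand) ended 114 bp from POP6, which encodes a protein of RNase MRP and RNase P. The widest 3′ gap was the 996 bp between snR40 (chromosome XIV, 89210 to 89306, plus strand) and CAF40.

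**Figure D5:**
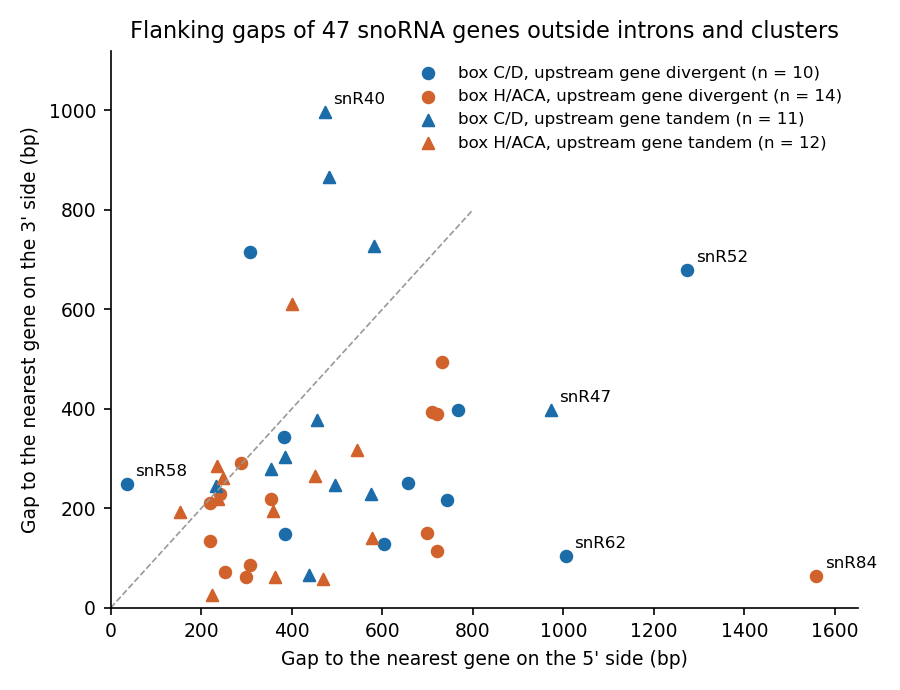
Gap in bp to the nearest annotated gene on the 5′ side (horizontal axis) and 3′ side (vertical axis) of the 47 snoRNA genes outside introns and clusters that overlap no gene, coloured by class; circles have a divergent and triangles a same-strand gene upstream, and the dashed line marks equal gaps. Of the 47, 36 (76.6%) lie below the line, against 68.1% of protein-coding and 79.7% of tRNA genes, and snR84 is farthest right at 1559 bp.

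Genes for proteins that build or process snoRNA particles lay near a member at about the share of all protein-coding genes. The list held 21 genes, all found in the annotation. They were the box C/D proteins NOP1, NOP56, NOP58 and SNU13, the box H/ACA proteins CBF5, GAR1, NHP2 and NOP10, 12 genes of processing and assembly, and TBF1, which encodes a factor that binds snoRNA promoters. Within 10 kb of a member were 2 of 21 (9.52%), against 709 of 6664 protein-coding genes (10.6%). These were RSA1, an assembly factor gene 7498 bp from snR59, and RAT1, the gene for the nuclear exonuclease that trims snoRNA 5′ ends, 8765 bp from snR62. RNT1 was 12432 bp from snR86, TBF1 25015 bp from snR17b, SNU13 40153 bp from snR53 and NOP1 103892 bp from snR63. None of the 21 had more than 1 exon.

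Between the before and after annotations no member was resized or turned around, and 74 of 77 kept their coordinates. The 3 that differed were on the right arm of chromosome IV, to the right of the interval between the arms, and each moved by -3423 bp. By its lowest coordinate snR47 went from 544707 to 541284, snR13 from 1406024 to 1402601 and snR84 from 1495582 to 1492159. The fourth member of this chromosome, snR63 (323217 to 323471), is on the left arm and had the same coordinates in both.

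The deposited bins, the units in which a signal along chromosomes could be read, were wider than the members whose midpoints they held. Bins scale with chromosome length, and the midpoints of the members fell into 64 of 8000 nuclear bins (0.80%). Of the bin with its midpoint, a single member covered between 3.22% (snR47, 99 bp of 3071 bp) and 54.3% (snR86, in a bin of 1849 bp), with a median of 8.30%. For the 7 members that lay over 2 bins, snR189 among them, only the part in that bin was counted. Next to snR86 came the short bins of chromosome III (634 bp), of which snR43 covered 33.0%, snR33 28.9% and snR189 28.2%. In 9 bins lay the midpoints of more than 1 member, 22 members in all. The cluster of chromosome XIII was split, with snR78 and snR77 in bin 161 and the other 5 in bin 162, which they filled to 26.5%. The cluster of chromosome XVI was split as well, with snR51 in bin 379 and snR41 in bin 380. Between them, snR70 lay across the edge of these bins, with its midpoint in bin 380. The remaining 4 clusters lay in 1 bin each, as did snR31 and snR5, and snR39 and snR39B. In the after grid snR47 alone had another bin number by midpoint, 177 in place of 178.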

How the data were processed

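Bowtie2 (version 2.2.9) is the aligner listed per the submitters' processing notes. The build was not given in the sources used here. For both a before and an after version of the genome the authors deposited chromosome lengths, bins and a gene annotation whose source field names Ensembl. All numbers in them are positions and lengths in bp, with no score or signal.

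The extent of a gene was the span of all its records, 1-based. Introns were gaps of 20 bp or more between exon records of a protein-coding transcript; 45 gaps of 1 bp were left out. Clusters were neighbouring members on the same strand less than 1 kb apart. Gaps count the bases between genes. Without their introns, the extents of the intron hosts were whole numbers of codons. Protein-coding extents thus appear to leave out untranslated ends, and introns in such ends would be missed. Gaps to these genes are therefore not distances between transcripts. Neighbours are the nearest annotated genes that do not overlap. The gene table of assembly R64 gave only names, biotypes, gene order and whether each host enclosed its intronic member. All members could be named; those described in full were intronic, clustered, overlapping, longest, shortest, on chromosome IV or at an extreme of position. The members and lists were chosen with earlier results of these data known. On simulated data all 50 planted clusters and 50 planted intronic genes were recovered. These were planted within the rules used, so their recovery checks the code alone. No sequence was used. Python 3.11.15, pandas 2.3.3 and matplotlib 3.10.9 were used.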

Additional observations from a re-analysis of the deposited data

How the results depend on the processing

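No paired analysis was possible because no file gives a value per library, and leaving out replicates was not run for the same reason. The searches for the Tbf1 motif and for C boxes were not run, since no sequence was used. Of 29 alternatives to the 8 results, 28 stayed within 1.5 times the value given. With every bin a gene overlaps counted, 2 members (snR47 and snR84) changed bin number in place of 1, because the after bins split snR84 over bins 487 and 488. Leaving out NME1, an alternative chosen after seeing the data, took the median length from 126 to 125 bp. A name starting with SNR in place of the biotype gave 81 genes, since 5 snRNA genes share that prefix and NME1 lacks it. Any overlap with a protein-coding extent gave 12 members in place of 8, and a gap under 2 kb gave 8 clusters with 23 members. A gap under 500 bp left 6 clusters with 19 members. The annotation records one form of each gene, and BY4741 cells may differ from it.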

Other observations

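Ribosomal protein genes were often the direct neighbours of members outside introns and clusters. This was noticed in the neighbour lists, so it is given as a description with no test. Of the 50 members outside clusters and introns, 14 (28.0%) had a gene named RPL or RPS as the nearest on 1 side, 8 on the 5′ side and 6 on the 3′ side. The same was true of 248 of 6664 protein-coding genes (3.72%) and 3 of 275 tRNA genes (1.09%), with 132 such ribosomal protein genes in the annotation. By class there were 9 of 23 box C/D members and 5 of 27 box H/ACA members. On the 5′ side snR87 was 767 bp from the divergent RPL14A, snR80 400 bp from RPL12A, snR4 386 bp from RPS26B, snR11 364 bp from RPL36A, snR34 358 bp from RPS29A and snR13 354 bp from RPL27B, the last 5 on the same strand. On the 3′ side snR56 was 245 bp from RPS8A, snR63 228 bp from RPL31A and snR32 262 bp from RPL42B, all convergent.

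Both U3 genes had a copy of the same ribosomal protein gene on the 5′ side, each divergent. snR17b was 604 bp from RPL33A, and snR17a was 701 bp from RPL33B, with IRC13 overlapping its first bases. RPL7A had snR39 in its second intron and snR39B 377 bp upstream on the same strand. RPS14A lay between snR65, 217 bp away, and snR189, 389 bp away, and is counted for both.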
